A study of Mus musculus with 37 samples.

Results

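Klotho, its relative β-Klotho and the FGF receptors form the receiving end of endocrine FGF signalling. They were examined here as 10 genes in the hippocampus of mice that lose the histone demethylase Kdm1a in adult neurons. The genes were taken by name from the 48795 genes of the count table. They are the co-receptor genes Kl and Klb, the receptor genes Fgfr1 to Fgfr4, the endocrine ligand genes Fgf23 and Fgf21, and the sheddase genes Adam10 and Adam17. They were selected on their counts in the comparison of genotypes, with the differences between Kdm1a-ifKOs and controls in view, so the members' differences between genotypes are given as a description, without p-values. Where a member is said to be called, it passed the threshold used for all genes, and nothing is read from that.

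The 6 RNA-seq libraries came from whole hippocampus of male mice, 3 Kdm1a-ifKOs and 3 control littermates, 1 library per mouse. Kdm1a-ifKOs carried floxed Kdm1a alleles and the Camk2a-creERT2 transgene, whose Camk2a promoter is active in forebrain excitatory neurons. Controls (labelled WT) lacked the recombinase. Both groups had received tamoxifen, and the labels give no age. Glia, interneurons, vessels and choroid plexus are not expected targets of the Camk2a promoter, but Kdm1a in each of these cell types was not measured here. The poly-A RNA of all these cells and of the excitatory neurons was mixed in each library. In such bulk samples fewer cells of a type and less RNA per cell cannot be told apart. A CTCF ChIA-PET library from sorted Camk2a+ neuronal nuclei of tamoxifen-treated WT mice, tagged with Sun1-GFP in Camk2a-creERT2 cells, gave the chromatin loops. Total counts ran from 18985542 to 19469947 per RNA-seq library, and of the 16799 genes with enough counts to be tested, 1014 were higher and 473 lower in Kdm1a-ifKOs (8.85% in all). The targeted gene followed the labels: Kdm1a (ENSMUSG00000036940) had 1521, 1545 and 1481 counts in controls and 764, 726 and 748 in Kdm1a-ifKOs, a log2FC of -1.07 (SE 0.0559, edgeR adjusted p = 6.24e-08).

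Endocrine FGFs bind heparan sulphate weakly, circulate, and need a Klotho protein beside an FGF receptor to signal. Klotho, the product of Kl, serves FGF23, the bone hormone that makes the kidney excrete phosphate, while β-Klotho serves FGF21 and FGF15. The extracellular part of Klotho is cut from the membrane by ADAM10 and ADAM17 and is found free in blood and cerebrospinal fluid. In the brain Klotho is best known from the choroid plexus and is also made in hippocampal neurons. Mice without it age prematurely.

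The promoter sequences of both co-receptor genes are shown because Kl had the largest difference between genotypes of the tested members, while Klb, its closest relative here, had the lowest level of them. The 250 bases before the start site are given 5′ to 3′ on the plus strand (RefSeq, GRCm38.p6), with every CpG in capitals. The Kl window is chr5:150952357-150952606 and the Klb window chr5:65348161-65348410. The GENCODE gene body used below starts right after the window for Kl, at 150952607, but inside the window for Klb, at 65348314.
Kl: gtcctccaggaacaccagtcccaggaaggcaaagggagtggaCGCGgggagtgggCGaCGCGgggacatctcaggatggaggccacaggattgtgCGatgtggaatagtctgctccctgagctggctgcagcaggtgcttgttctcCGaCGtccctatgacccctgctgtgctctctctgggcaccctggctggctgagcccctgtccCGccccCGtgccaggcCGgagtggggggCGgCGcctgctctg
Klb: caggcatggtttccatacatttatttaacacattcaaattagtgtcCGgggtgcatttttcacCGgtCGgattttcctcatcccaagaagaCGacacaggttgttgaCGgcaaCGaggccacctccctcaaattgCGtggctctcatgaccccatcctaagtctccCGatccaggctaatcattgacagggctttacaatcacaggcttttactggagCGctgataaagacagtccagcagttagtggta
The Kl window held 13 CpGs and 66.8% G or C, and the Klb window held 9 CpGs and 48.0% G or C. The median over 32851 promoters was 6 CpGs, and 31.5% of them had at least 13. The letters GGGCGG, the core of the GC box, searched on both strands, were found 2 times upstream of Kl and not upstream of Klb. They were present in 32.7% of all promoter windows of that length. Of the 10 members, 9 had a promoter in the table, Fgfr1 being the exception. Their CpG counts ran from 2 (Fgfr2) and 6 (Fgf23) to 23 (Adam17) and 29 (Adam10), so the Kl window was neither rich nor poor in CpGs among them.

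In controls the members spanned a wide range of levels. In TPM, which scale counts to exon length and then to the summed level of a library, 3 members stood at the top without separation by their 3 values: Adam10 at 75.2 ± 3.71, Fgfr3 at 74.7 ± 6.93 and Fgfr1 at 72.7 ± 5.14 (SD, n = 3 mice here and below). Fgfr2 followed at 21.7 ± 0.367 TPM, Adam17 at 12.1 ± 0.302 and Kl at 10.4 ± 0.933, each apart from its neighbour in all 3 mice. Klb was near the bottom at 0.986 ± 0.347 TPM, overlapping Fgf23 at 0.732 ± 0.171. Fgfr4 had 0.118 ± 0.0583 TPM and Fgf21 had no count in any control. Kl was thus above 38.1% of the tested genes in controls and Klb above 4.93%. The length used matters for these levels: with the longest transcript in place of all exons, Fgfr1 had 112 TPM, Fgfr2 39.8 and Kl 13.1. Fgfr3 then had 98.9 TPM and Adam10 63.2, so the 3 top means no longer stood together.

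Kl (ENSMUSG00000058488, chr5:150952607-150993817, plus strand) was the member with the clearest difference between genotypes. Controls had 455, 428 and 500 counts and Kdm1a-ifKOs 1178, 1111 and 1169, which is 24.4 ± 2.26 and 59.0 ± 2.27 CPM, counts scaled to the library's total. The lowest Kdm1a-ifKO mouse had 56.4 CPM and the highest control 26.9 CPM, so the groups stood wide apart. The log2FC was 1.28 (SE 0.0731), a fold of 2.42. The spread among mice was small, with a coefficient of variation of 9.26% in controls and 3.84% in Kdm1a-ifKOs, where counting error alone gives 4.66% and 2.95%. On the TPM scale Kl rose from 10.4 to 25.3, so that its mean passed those of Adam17 (12.0 TPM in Kdm1a-ifKOs) and Fgfr2 (23.4 TPM, with overlapping mice). Both orders depend on the exon length used. In CPM, the mean of Kl in Kdm1a-ifKOs (59.0) stayed below that of Fgfr2 (60.4). Against Adam17, Kl was already higher in controls on that scale (24.4 and 21.8 CPM). The GENCODE annotation placed no other gene over Kl.

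**Figure D1:**
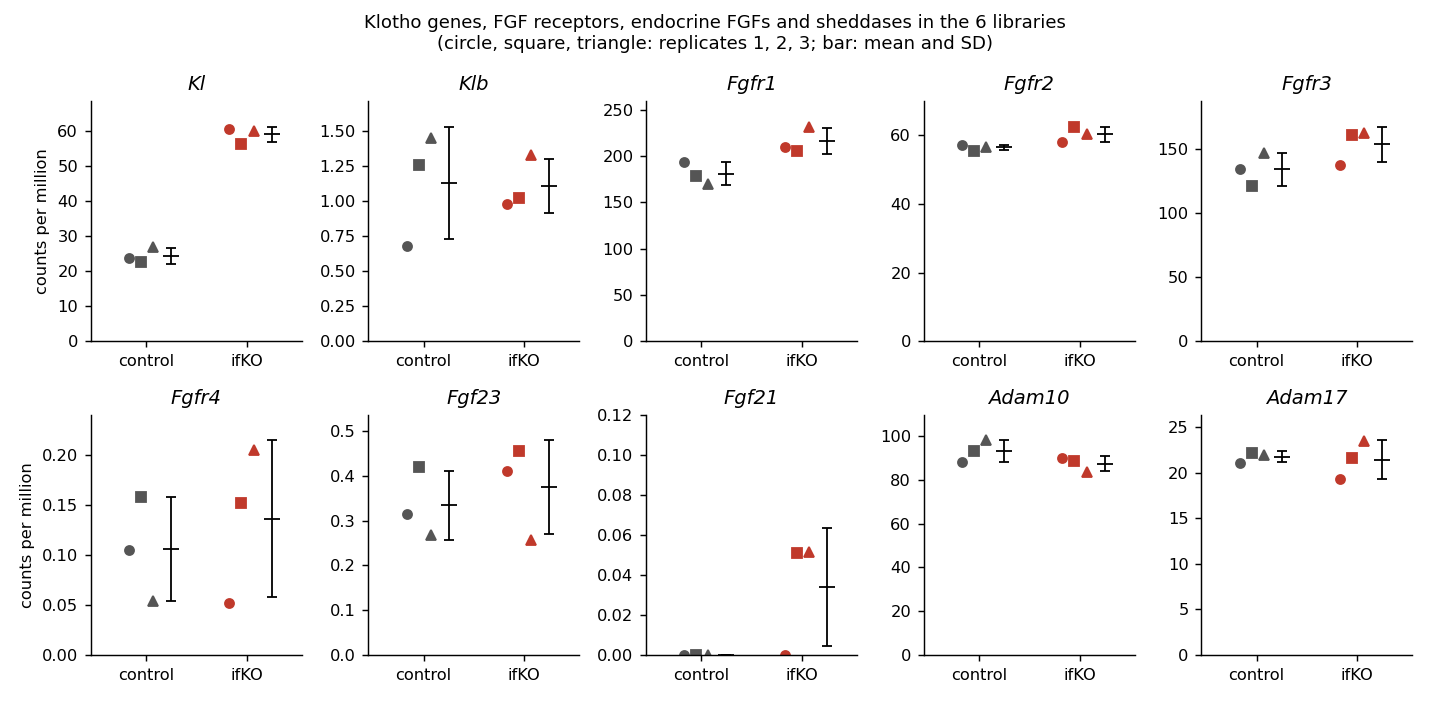
CPM (y axes, each from 0) of the 10 members in the 3 control (grey) and 3 Kdm1a-ifKO (red) libraries. Points are mice and bars the mean and SD. Kl sits between 22.5 and 26.9 in controls and between 56.4 and 60.6 in Kdm1a-ifKOs, while the other members overlap or lie close together.

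Among abundant genes a change of this size was uncommon. Of the 16799 tested genes, 229 were called with a log2FC over 1 (1.36%), but their median level in controls was 0.952 CPM. Of the 7413 tested genes at least as abundant as Kl in controls, 9 were called with a log2FC over 1, and Kl stood at place 5 of the 7413 by log2FC. These ranks describe the value that chose the gene and support nothing further.

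The other co-receptor did not share this difference. Klb (ENSMUSG00000029195, chr5:65348314-65384007, plus strand) had 13, 24 and 27 counts in controls and 19, 20 and 26 in Kdm1a-ifKOs. The groups overlapped fully, and the log2FC was -0.02 with an SE of 0.311, an error so wide at these counts that a moderate difference was not detectable. The ratio of Kl to Klb in TPM was 17.1, 8.70 and 9.03 in controls and 30.2, 27.1 and 21.9 in Kdm1a-ifKOs.

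The receptor genes encode tyrosine kinases of the cell surface. Fgfr1 (ENSMUSG00000031565, chr8:25513654-25575718, plus strand), the main partner of Klotho for FGF23, had 3704, 3400 and 3161 counts in controls and 4078, 4057 and 4514 in Kdm1a-ifKOs. All 3 Kdm1a-ifKO mice (206 to 232 CPM) were above all controls (170 to 194 CPM), by a small margin. Its log2FC was 0.26 (SE 0.0629), a fold of 1.19. It passed the threshold set for all genes with all 6 libraries, and did not pass it without control replicate 2 (log2FC 0.24), without Kdm1a-ifKO replicate 1 (0.28) or replicate 3 (0.20), or with the replicate number as a block (0.26).

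Fgfr3 (ENSMUSG00000054252, chr5:33721674-33737068, plus strand), known from astrocytes, had 2591, 2311 and 2730 counts in controls and 2683, 3162 and 3179 in Kdm1a-ifKOs. Kdm1a-ifKO replicate 1 (138 CPM) lay below control replicate 3 (147 CPM), and the log2FC of 0.19 (SE 0.0812) was not called, except in the fit without a filter on low counts. Fgfr2 (ENSMUSG00000030849), a receptor of glia and epithelia, ranged from 55.6 to 57.3 CPM in controls and from 58.2 to 62.6 in Kdm1a-ifKOs. Its groups did not overlap, yet its log2FC of 0.10 (SE 0.056) was not called. Fgfr4, the receptor that pairs with β-Klotho in liver, had 2, 3 and 1 counts in controls and 1, 3 and 4 in Kdm1a-ifKOs, too few to be tested.

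Several of these counts share sequence with other annotated genes. Exons of Fgfr1 overlap Gm16159 and those of Fgfr3 overlap G630022F23Rik, both on the opposite strand, and the sources used here do not say whether counting used strand. In GENCODE M21 the Fgfr2 model (chr7:130162451-133123350, minus strand) runs far past the RefSeq gene body (chr7:130162451-130266808) and shares exon sequence with Ctbp2 on the same strand, so its length and counts are less certain than those of the other receptors.

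The shares of Fgfr1 and Fgfr3 among the receptors overlapped between genotypes. In TPM, Fgfr1 made up 43.0% ± 2.74 of the summed level of the 4 receptor genes in controls and 44.4% ± 1.95 in Kdm1a-ifKOs, and Fgfr3 44.1% ± 2.96 and 43.6% ± 1.83. Fgfr2 accounted for 12.9% ± 0.395 and 11.9% ± 0.607, and Fgfr4 for at most 0.111% in any library. The Fgfr2 share was 12.6% to 13.3% in controls and 11.2% to 12.3% in Kdm1a-ifKOs, without overlap. The sum itself was 176, 161 and 171 TPM in controls and 184, 199 and 208 TPM in Kdm1a-ifKOs, without overlap. In CPM, 15.7% of all tested genes had Kdm1a-ifKOs wholly above controls and 14.4% wholly below, so nothing is read from these separations. Kl reached 0.144 ± 0.0207 of the Fgfr1 level in controls and 0.290 ± 0.0158 in Kdm1a-ifKOs. All these shares and ratios use the length of all exons. With the longest transcript, Fgfr1, Fgfr2 and Fgfr3 had 112, 39.8 and 98.9 TPM in controls, so their shares would differ.

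**Figure D2:**
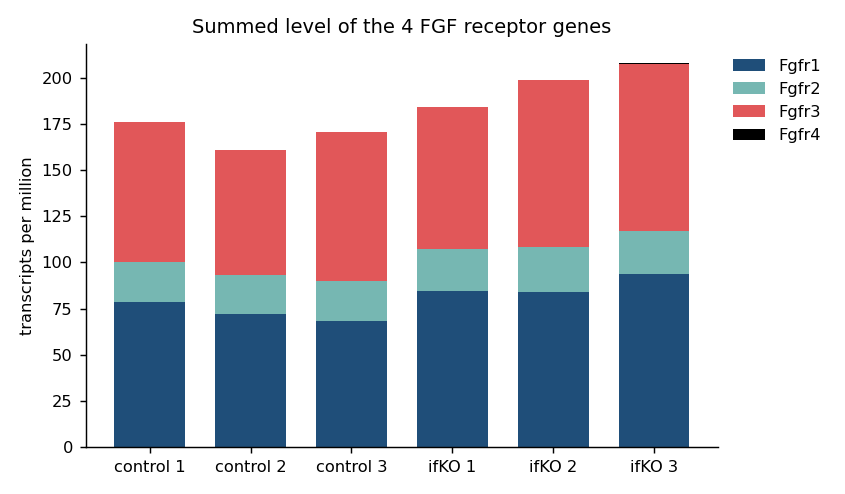
Summed level of the 4 FGF receptor genes in TPM (y axis, from 0) in each of the 6 libraries, each bar split by gene. The bars reach 161 to 176 in controls and 184 to 208 in Kdm1a-ifKOs, Fgfr1 and Fgfr3 fill most of each bar, and Fgfr4 is too low to see in most bars.

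The endocrine ligands were almost absent from these libraries. Fgf23 (ENSMUSG00000000182) had 6, 8 and 5 counts in controls and 8, 9 and 5 in Kdm1a-ifKOs, which is 0.335 CPM (exact Poisson 95% interval 0.201 to 0.523) and 0.375 CPM (0.235 to 0.568). Fgf21 (ENSMUSG00000030827) had 0 counts in the controls, which allows up to 0.065 CPM, and 0, 1 and 1 in Kdm1a-ifKOs. Fgf15, the remaining endocrine FGF of the mouse, had at most 1 count in any library. These intervals cover counting error only, and the intervals of the genotypes overlap for both ligands, which leaves room for moderate differences.

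The sheddases showed no difference that was called. Adam10 (ENSMUSG00000054693, chr9:70678997-70780229) had 1684, 1771 and 1823 counts in controls and 1750, 1747 and 1627 in Kdm1a-ifKOs, with overlapping groups and a log2FC of -0.09 (SE 0.0576). Adam17 (ENSMUSG00000052593, chr12:21323509-21373632), also the releasing enzyme of tumour necrosis factor, had 403, 423 and 410 counts in controls and 375, 426 and 457 in Kdm1a-ifKOs (log2FC -0.02, SE 0.0836). An exon of Adam17 overlaps Iah1 on the opposite strand.

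Of the 10 members, 7 had enough counts to be tested and 2 were called higher (Kl and Fgfr1), where 6.04% of all tested genes were called in that direction. None was called lower by edgeR or by DESeq2, against 2.82% of all tested genes. In 3 of the 7 (Kl, Fgfr1 and Fgfr2) every Kdm1a-ifKO mouse was above every control, which held for 15.7% of all tested genes, and in none was every Kdm1a-ifKO mouse below, which held for 14.4%. Since the members were chosen with this contrast in view, nothing is read from these shares.

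The other genes of the pathway were taken from 9 lists with 129 genes, of which 111 were tested, 14 rose and 7 fell. The median log2FC over all tested genes was near 0 (-0.0034), and 6.04% and 2.82% of them rose and fell. The lists, like the members, were chosen with earlier results of these data known. Their counts of called genes and the adjusted p-values below are therefore a description, and nothing is read from the shares.

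Among the 10 tested paracrine FGFs, which act on neighbouring cells without Klotho, 2 rose and none fell, with a median log2FC of 0.28. DESeq2 called 2 higher and 0 lower, and by edgeR 4 were higher and 0 lower at an unadjusted p under 0.05. Fgf16 had 33, 25 and 33 counts in controls and 98, 97 and 88 in Kdm1a-ifKOs (log2FC 1.59, SE 0.182, edgeR adjusted p = 9.7e-05). Fgf3, a ligand of embryonic development, had 1, 2 and 0 counts in controls and 22, 15 and 24 in Kdm1a-ifKOs. Both groups were low but apart, and the ratio of summed counts was 19.7 with an exact 95% interval for counting error of 6.43 to 98.1. Fgf3 passed the filter on low counts only through its Kdm1a-ifKO counts, so nothing is read from its call. The most abundant members of this list were not called. Fgf1 at 38.7 TPM in controls had a log2FC of 0.20 (SE 0.0614, edgeR adjusted p = 0.056), with every Kdm1a-ifKO mouse above every control. Fgf10 at 16.0 TPM had -0.02 (SE 0.101).

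The 4 intracellular FGF homologous factors bind sodium channels instead of FGF receptors, and 3 of them changed in different directions. Fgf11 rose from 890, 1004 and 883 counts to 1548, 1316 and 1347 (log2FC 0.55, SE 0.0755, edgeR adjusted p = 0.000475). Fgf12 (log2FC -0.38, SE 0.0867) and Fgf14 (log2FC -0.43, SE 0.0981) fell. Fgf13, the most abundant of the 4 at 217 TPM in controls, had a log2FC of -0.11 (SE 0.052) and was not called.

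At the membrane, 1 of 9 tested partners rose and 1 fell by edgeR, and DESeq2 called 0 higher and 1 lower. Fgfrl1, an FGF receptor-like protein without a kinase, had 353, 383 and 354 counts in controls and 463, 456 and 466 in Kdm1a-ifKOs (log2FC 0.30, SE 0.0728). It was not called by DESeq2, with the replicate block, or without control replicate 1, Kdm1a-ifKO replicate 1, Kdm1a-ifKO replicate 3, or both control replicate 1 and Kdm1a-ifKO replicate 2. Flrt2, a leucine-rich transmembrane protein, fell (log2FC -0.47, SE 0.103). The adhesion molecules Ncam1 and L1cam, the most abundant here at 116 and 108 TPM in controls, had log2FC values of 0.01 and -0.12 and were not called.

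None of the 11 genes of intracellular receptor signalling was called, by edgeR or DESeq2, and 2 had an unadjusted edgeR p under 0.05, 1 in each direction. Their median log2FC was 0.07, and the most abundant, the adaptor Grb2 (173 TPM in controls) and the phosphatase gene Ptpn11 (122 TPM), had log2FC values of 0.06 (SE 0.0546) and -0.08 (SE 0.0475).

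Of the 14 tested feedback regulators and targets of FGF signalling 4 fell and 1 rose, 2 of the 14 had a log2FC above 0, and the median was -0.17. At an unadjusted edgeR p under 0.05 there were 7 lower and 1 higher. DESeq2 called 5 lower and 0 higher, without Spry3 and Etv4 and with Dusp5 (log2FC -0.45) and Etv1 (-0.40), the last 2 named after their values were seen. Dusp6, the phosphatase of ERK that FGF signalling induces, had 1472, 1223 and 1273 counts in controls and 1031, 1102 and 1131 in Kdm1a-ifKOs (log2FC -0.33, SE 0.0708, edgeR adjusted p = 0.0115). The groups did not overlap. The Ras pathway inhibitors Spred1 (-0.24, SE 0.0593), Spred3 (-0.27, SE 0.0576) and Spry3 (-0.35, SE 0.0933) fell on the same log2 scale. Etv4, a transcription factor induced by FGFs, went the other way with 231, 265 and 234 counts in controls and 313, 318 and 317 in Kdm1a-ifKOs (log2FC 0.33, SE 0.0878). Dusp6 at 88.7 TPM and Spred2 at 87.4 TPM were the most abundant genes of the list in controls, and Spred2 had a log2FC of -0.04 and was not called.

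Heparan sulphate, the sugar chain that holds FGFs at the cell surface, is made by the enzymes and carried by the core proteins of the largest list. Of its 29 tested genes 4 rose and none fell by edgeR, with a median log2FC of 0.04. At an unadjusted p under 0.05 there were 5 in each direction, and DESeq2 called 4 higher and 2 lower. The 4 that rose by edgeR were the sulphotransferase Ndst1 (log2FC 0.26, SE 0.0512), the glypicans Gpc3 (0.63, SE 0.137) and Gpc5 (0.22, SE 0.062), and the syndecan Sdc3 (0.21, SE 0.0559). DESeq2 called Gpc1 (log2FC 0.25) in place of Gpc5, and the 2 lower genes, Ndst3 (-0.37) and Ndst4 (-0.53), which like Gpc1 are named after their values were seen. The sulphotransferase Hs3st4, at 147 TPM in controls the most abundant gene of the list, had a log2FC of -0.10 (SE 0.0515).

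Of the 22 tested regulators of ectodomain shedding 4 rose and none fell, and 18 of the 22 had a log2FC above 0 (median 0.16). At an unadjusted edgeR p under 0.05 there were 10 higher and 0 lower, and DESeq2 called 5 higher and 0 lower. Rhbdf1 encodes iRhom1, which helps ADAM17 to mature. It had 418, 297 and 362 counts in controls and 877, 862 and 858 in Kdm1a-ifKOs, with no overlap, a log2FC of 1.22 (SE 0.0991) and an edgeR adjusted p of 1.0e-05. Tspan17 (log2FC 0.40, SE 0.0589) and Tspan33 (0.44, SE 0.0668), tetraspanins that bind ADAM10, rose too. Timp2, an inhibitor of metalloproteinases and abundant at 338 TPM in controls, rose by less (0.28, SE 0.0669).

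In the list of phosphate, calcium and vitamin D handling, the systemic task of FGF23 and Klotho, 1 of 12 tested genes rose and none fell by edgeR or DESeq2, with 2 higher and 1 lower at an unadjusted edgeR p under 0.05. This was Rxra, the partner of the vitamin D receptor (848, 843 and 738 counts in controls, 1018, 1076 and 1119 in Kdm1a-ifKOs, log2FC 0.36, SE 0.0656). The phosphate transporter gene Slc20a1 and the calcium-binding Calb1, at 104 and 108 TPM in controls, each had a log2FC of -0.15 and were not called.

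**Figure D3:**
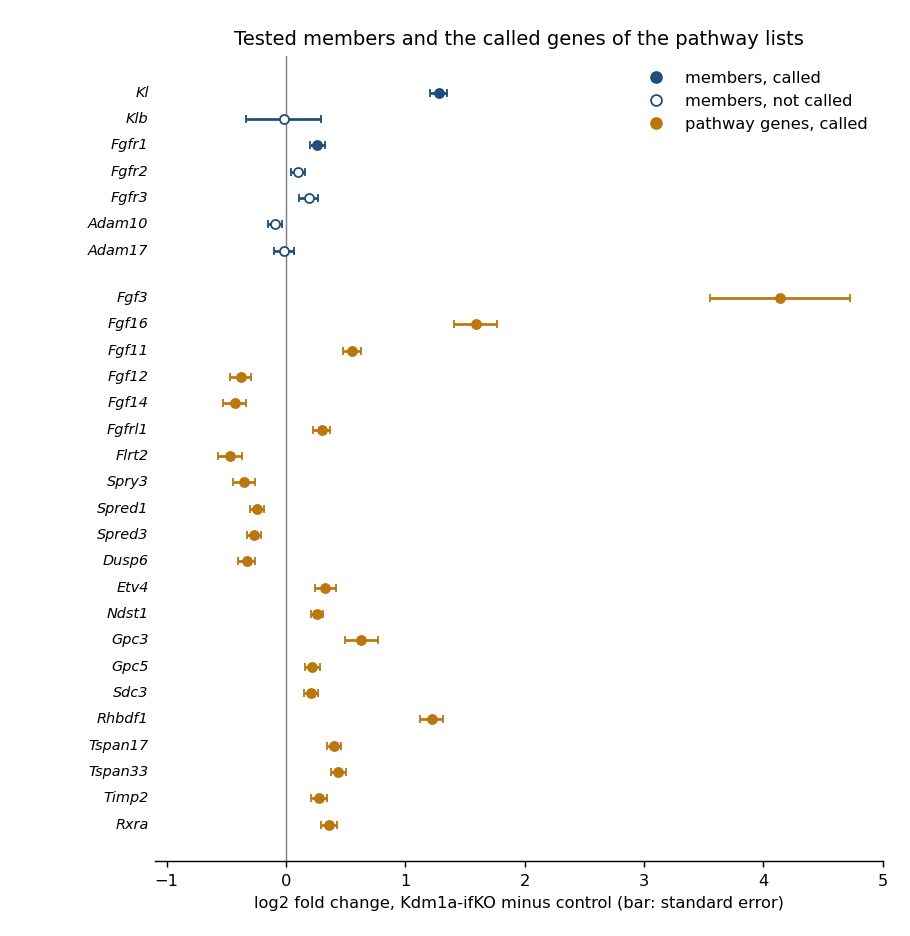
Log2 fold change of Kdm1a-ifKO minus control (x axis, bars are standard errors) of the 7 tested members (blue, filled where called) and the 21 called genes of the pathway lists (orange). Kl at 1.28 lies beside Rhbdf1 at 1.22 and Fgf16 at 1.59, and most other values lie between -0.47 and 0.63. Fgf3 at 4.14 rests on 3 counts in controls.

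Of these 21 calls, 9 held with each of the 6 libraries left out in turn, and 7 held in every fit made: Fgf3, Fgf16, Fgf11, Rhbdf1, Tspan17, Tspan33 and Rxra. Nothing is read from Fgf3 being among them, since its control counts alone would not have passed the filter of the main fit. Of the feedback genes that fell, Spred3 was called in all 6 of the fits that leave out a library, Dusp6 in 5, Spred1 in 4 and Spry3 in 1. Etv4 was called in 1 of the 6. Without both control replicate 1 and Kdm1a-ifKO replicate 2 none of these 5 genes was called, with log2FC values of -0.26 for Dusp6, -0.27 for Spred1, -0.22 for Spred3, -0.34 for Spry3 and 0.29 for Etv4.

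Since Klotho is abundant in choroid plexus, a piece of which can stay on a dissected hippocampus, its markers were read beside Kl. The 12 markers summed to 45.8, 20.1 and 19.3 CPM in controls and 12.6, 16.6 and 20.7 CPM in Kdm1a-ifKOs, so control replicate 1 was high and Kdm1a-ifKOs were not. Ttr, transthyretin and the most abundant of them, had 611, 204 and 131 counts in controls and 64, 123 and 159 in Kdm1a-ifKOs (log2FC -1.49, SE 0.772, not called). Of the 12, 8 were tested and none was called by edgeR or DESeq2, with 1 at an unadjusted edgeR p under 0.05. The tested markers were Ttr, Folr1, Clic6, Aqp1, Otx2, Sostdc1, Prlr and Cldn2, and their median log2FC was -0.02. Kcnj13, Slc4a5, Kcne2 and Tmem72 had at most 12 counts in any library. None of the 12 was at 0 in all libraries. The part of choroid plexus tissue in the levels of Kl was not tested.

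The 8 leptomeningeal markers summed to 115 to 136 CPM in controls and to 106, 242 and 74.5 CPM in Kdm1a-ifKOs, with Kdm1a-ifKO replicate 2 high, and their part in the results was not tested. Without control replicate 1 and Kdm1a-ifKO replicate 2, the log2FC was 1.29 for Kl and 0.34 for Fgfr1. The 8 ependymal markers summed to 28.4 to 38.8 CPM in controls and 22.8 to 34.7 CPM in Kdm1a-ifKOs. The 8 astrocyte markers summed to 2600 to 2780 CPM in controls and 3020 to 3300 CPM in Kdm1a-ifKOs, and Slc1a3 (log2FC 0.22), S100b (0.26) and Aldoc (0.20) rose. These differences are of the size of those of Fgfr1 and Fgfr3, and their part in them was not tested. All 8 astrocyte markers had a log2FC above 0, with 4 at an unadjusted edgeR p under 0.05 and 4 called by DESeq2. The 7 microglia markers summed to 300 to 326 CPM in controls and 342 to 430 CPM in Kdm1a-ifKOs, where Cx3cr1 (0.27), Tmem119 (0.42) and Csf1r (0.33) rose. All 7 microglia markers had a log2FC above 0, with 6 at an unadjusted edgeR p under 0.05 and 4 called by DESeq2. Of the 4 oligodendrocyte precursor markers C1ql1 rose (0.98), and 2 were higher at that unadjusted p. The 7 excitatory neuron markers summed to 7920, 7580 and 7450 CPM in controls and 8080, 7280 and 8010 CPM in Kdm1a-ifKOs, with overlap, and Neurod6 fell (-0.36), and of the 8 interneuron markers Vip (-0.46) and Npy (-0.31) fell, with sums of 875 to 945 CPM in controls and 844 to 879 CPM in Kdm1a-ifKOs. At an unadjusted edgeR p under 0.05, 4 interneuron markers were lower and 1 higher, and 1 excitatory neuron marker was lower. DESeq2 called 2 interneuron markers and 1 excitatory neuron marker lower. No marker of endothelium (7), oligodendrocytes (8) or leptomeninges was called by edgeR or DESeq2, and none had an unadjusted p under 0.05. Of the 7 tested ependymal markers none was called by either tool, with 1 at an unadjusted p under 0.05.

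**Figure D4:**
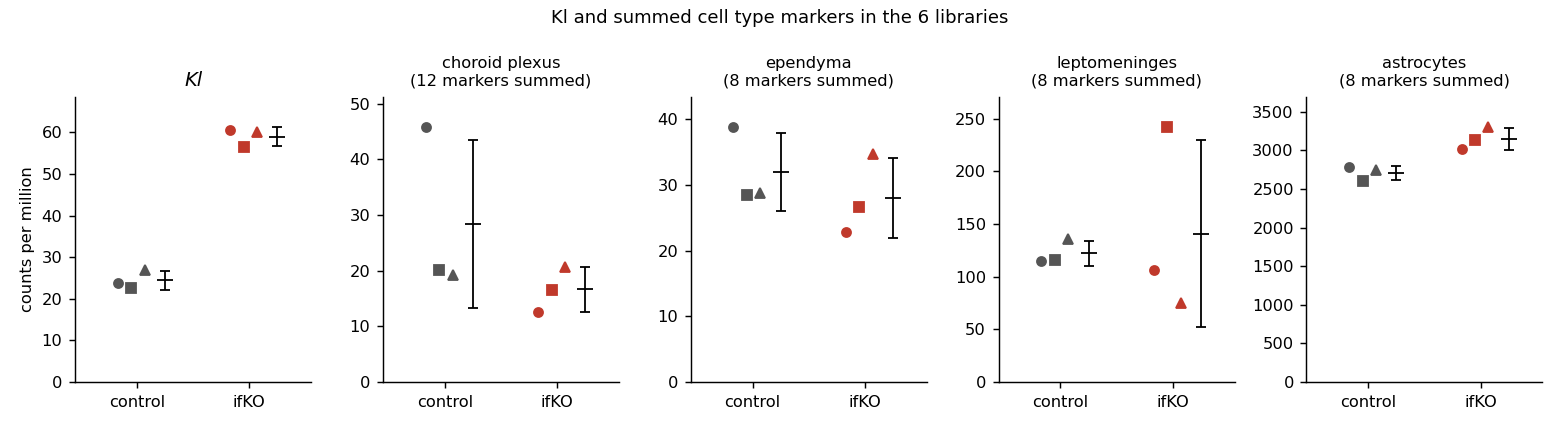
Kl and the summed markers of 4 cell types in CPM (y axes, from 0) in the 3 control (grey) and 3 Kdm1a-ifKO (red) libraries. Points are mice (circle, square and triangle for replicates 1, 2 and 3) and bars the mean and SD. Kl separates the genotypes, choroid plexus markers are highest in control replicate 1 at 45.8, and leptomeningeal markers in Kdm1a-ifKO replicate 2 at 242.

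The 5 tested genes whose profile over the 6 libraries was most like that of Kl differed from it by a root mean square of 0.0844 to 0.101 on the log2 scale. In that order they were Ucp2, a mitochondrial uncoupling protein (401, 323 and 385 counts in controls, 931, 952 and 987 in Kdm1a-ifKOs), Tmprss9, Prob1, Ghsr and Rreb1. Their log2FC values lay between 1.33 and 1.69. Since these genes were picked for their likeness to Kl, their differences between genotypes follow from the choice and support nothing further. Rreb1, a zinc finger transcription factor, was the most abundant with 2774, 3104 and 3173 counts in controls and 8312, 7768 and 7423 in Kdm1a-ifKOs. Ghsr, the ghrelin receptor, had 23, 19 and 23 counts in controls and 68, 69 and 80 in Kdm1a-ifKOs. Exons of Ucp2 and Tmprss9 overlap Dnajb13 and Timm13 on the opposite strand.

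Neither neighbour of Kl on chromosome 5 was called higher. Stard13, 43.7 kb to the right, had 485, 494 and 534 counts in controls and 544, 549 and 573 in Kdm1a-ifKOs (log2FC 0.09, SE 0.0719, not called). Pds5b, a cohesin regulator 142 kb to the left, fell (log2FC -0.36, SE 0.080, edgeR adjusted p = 0.0199). Around Fgfr1 neither Letm2, 2.77 kb to the right (log2FC -0.14, SE 0.105), nor Tacc1, 257 kb to the left (0.02, SE 0.0561), was called.

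CTCF, the protein that anchors chromatin loops, was mapped in the tagged excitatory neurons described above, labelled WT, with 27786 loops of at least 3 paired-end tags (PETs). As 1 library without Kdm1a-ifKOs beside it, it allows no test and no comparison of genotypes. Kl lay apart from the anchors: the nearest were 278 kb to the left and 374 kb to the right of the gene, and they belonged to the single loop that held it, of 695 kb and 8 PETs. A tested gene was held by a median of 4 loops, 16.9% were held by none, and 43.1% had no anchor within 10 kb. Klb was held by no loop and had no anchor within 10 kb.

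The receptor genes sat closer to anchors. Fgfr1 was held by 6 loops with 121 PETs, the strongest of 300.3 kb and 85 PETs with an anchor at the end of the gene, and 4 loops had an anchor within 10 kb. The far anchor of 1 of these, with 3 PETs, lay near Rnf170 (log2FC -0.21, SE 0.0901) and Thap1 (0.08, SE 0.121), neither of them called. Fgfr3 was held by 6 loops with 107 PETs, the shortest of 53.4 kb, and had 6 with an anchor within 10 kb. With the RefSeq gene body, Fgfr2 was held by 11 loops and had an anchor of 5 loops within 10 kb. Fgfr4, Fgf23, Fgf21 and Adam10 were held by 5, 7, 11 and 2 loops, and Adam17 by none. Some of these loops were very long: 2 of those around Fgfr1, 2 around Fgfr2, 4 around Fgf23, 6 around Fgf21 and both around Adam10 spanned over 1 Mb. In all, 8 of the 10 members were held by a loop and 6 had an anchor within 10 kb. Counting loops of up to 1 Mb, 6 members were held, and 7 with the RefSeq body of Fgfr2.

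**Figure D5:**
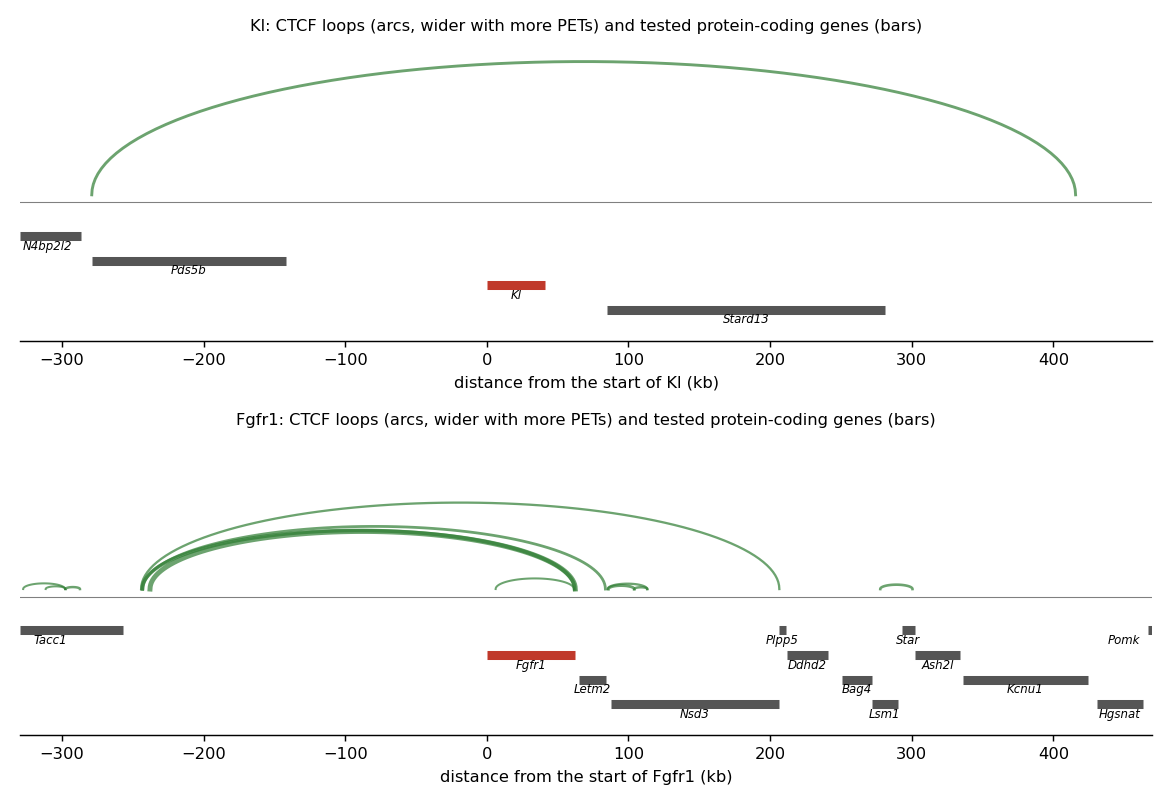
CTCF loops (arcs, wider with more PETs) and tested protein-coding genes (bars, the member in red) around Kl (top) and Fgfr1 (bottom), by distance from the start of each gene in kb (x axes). A single loop of 695 kb spans Kl, its anchors over the start of Pds5b and beyond Stard13. Loops of 300.3 and 305 kb end at the end of Fgfr1, and a loop of 327 kb ends further right, at Letm2.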

How the data were processed

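RNA-seq of 3 control and 3 Kdm1a-ifKO hippocampi and CTCF ChIA-PET of 1 library of sorted Sun1-GFP nuclei with Camk2a-creERT2, labelled WT, were used. The deposited RNA-seq values are read counts per gene, which the authors made from single-end poly-A reads with cutadapt 1.18, HISAT2 2.1.0 on mm10 and HTSeq 0.11.1 (versions per the submitters' processing notes). Whether counting used strand is not given in the sources used here. The loop values are PET counts that the authors made with ChIA-PIPE, deposited for loops of at least 3 PETs with a CTCF peak at both anchors.

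Symbols, positions and exon lengths came from GENCODE M21 (GRCm38). Counts were tested in edgeR 4.0.16 (filterByExpr, TMM, robust quasi-likelihood F test, genotype only) with Benjamini-Hochberg adjustment over 16799 genes, and a gene was called at an adjusted p-value under 0.05. The fit was tested on simulated data. CPM use TMM-scaled library sizes, and TPM all genes with a position. A profile was compared on log2(CPM + 0.5). An anchor within 10 kb of a gene body counted as near. Each pair of replicates differed by more than counting noise (chi-square per degree of freedom 3.08 to 8.14).

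Members, lists and tests were chosen with earlier results of these data known. Named were all members, called genes and the 2 most abundant of each pathway list, Fgf15, choroid plexus markers, called markers, the 5 genes most like Kl, and neighbours and loop partners of called members. The alternatives were DESeq2 1.42.0, its size factors, upper-quartile scaling, other filters, a replicate block, left-out libraries, other lengths and other loop rules.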

Additional observations from a re-analysis of the deposited data

How the results depend on the processing

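No called result reversed in sign under any alternative tried, but a number of calls were lost. Gpc5 and Sdc3 were each called in 1 of the 6 fits that leave out a library, and Timp2 in 2. The log2FC of Kl was 1.22 to 1.35 over the 13 other fits, which use the libraries it was chosen on. With 1 library left out in turn, the members called higher numbered 1 to 2, all genes called higher 646 to 876 and lower 137 to 584, and the pathway genes called higher 8 to 14 and lower 2 to 11. The highest number of falling pathway genes came without control replicate 1 (11) and the lowest numbers of both directions (8 and 2) came without Kdm1a-ifKO replicate 1. The calls over all genes were fewest, at 646 and 137, when Kdm1a-ifKO replicate 3 was left out. Without a filter on low counts, 1090 genes were called lower, and 24 pathway genes were called higher and 13 lower. The labels do not say whether the replicate numbers pair the samples. The deviations of same-numbered libraries correlated at -0.04, -0.10 and -0.16, and those of the other pairs at -0.10 to 0.18. Such values at 3 libraries per genotype cannot settle whether the mice were paired. With the replicate block 1 member was called higher, 249 genes lower, and 10 pathway genes higher. Without control replicate 1 and Kdm1a-ifKO replicate 2, an alternative chosen after seeing the data, 671 genes and 9 pathway genes were called higher. The cause of these shifts was not tested. Without division by length Kl had rank 5 of the 10 members instead of 6. With at least 5 PETs 3 members had an anchor within 10 kb. With at least 10 PETs 2 members were held by a loop and 3 had an anchor nearby. With anchors near the start site only, 2 members had one. RefSeq gene bodies left 8 members held and a limit of 1 Mb on the loops left 6, both tried after seeing the data. The choroid plexus markers had a log2 ratio of -0.77 as a sum and a median log2FC of -0.02. Depth limited Klb, Fgf23, Fgfr4 and Fgf21, where counts were lowest.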
